A study of Homo sapiens with 26 samples.

Results

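Glucocorticoid receptor (GR) binding was measured by chromatin immunoprecipitation with sequencing (ChIP-seq) at 49 regions near genes of the tumour necrosis factor (TNF) superfamily, its receptors, the TRAF and RIPK adaptors below them, and 3 proteins named for their induction by TNF. A region was included when the nearest protein-coding transcription start site (TSS) to its midpoint, in GENCODE 44 on hg38, lay within 100 kb and belonged to such a gene. The members were 49 of the 10740 regions in the table, and of the 7574 that any protein-coding gene could be linked to at that distance. They lay near 23 of the 56 genes whose symbols meet the rule, and 33 genes, among them TNFRSF1A, CD40, FAS, TRADD, LTA, LTB and TRAF6, had no region. Given the gene set, the choice among the table's regions used position and gene name only, not GR signal. The gene set itself was chosen with earlier results of these data known. The table itself lists regions of GR binding, so a region may be in it only through the group where its signal was high. The shares of all regions given for comparison carry the same limit. The farthest member was 85.9 kb from the TSS of TNFSF8, and the nearest region beyond the limit was 116.7 kb from that of TNFSF18.

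All cells were A549, an established human lung carcinoma line of epithelial type that the labels give as wild type, kept in serum-free medium before treatment. An adenovirus had carried in either green fluorescent protein, as the control (Ad-GFP), or IκBαΔN, given as an inhibitor of NF-κB (Ad-IκBαΔN). Cells of each virus were untreated (NS), given 300 nM budesonide (Bud), an inhaled synthetic glucocorticoid, or given budesonide with 1 ng/ml interleukin-1β (IL1B+Bud), for 1 h. All 6 groups carried a virus, and the promoter driving each transgene and the share of cells infected are not given in the sources used here. Each group had 2 GR libraries from 2 independent experiments, but the table holds 1 authors' value per region and group. No difference therefore has a replicate check, and every fold here describes these values only. The table holds GR signal and no expression, so neither the cell type nor the activity of the transgene could be checked in it, and the depth of the libraries is unknown.

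TNF superfamily ligands are membrane-bound or shed trimers that cluster receptors of the TNFRSF family, whose cytoplasmic tails recruit TRAF proteins or death-domain partners such as RIPK1. These complexes switch on NF-κB and MAP kinases or start cell death, and several genes of the pathway are themselves NF-κB targets. GR is a hormone-activated transcription factor that binds glucocorticoid response elements (GREs), and glucocorticoids are used to dampen cytokine signalling in the airway.

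Stretches of 160 bases from 6 lead regions are shown, so that the motifs can be read beside the values. A gene's lead region is its region with the highest mean deposited value. Among lead regions clear of UTRs and outside 1 chromosome that is not shown, the first 4 lines had the most negative difference between viruses in the effect of added IL1B. The last 2 had the highest budesonide signal in Ad-GFP. Lead regions left out on these grounds include TNFRSF6B, TRAF3 and TNFSF14, whose differences between viruses (-3.62, -3.57 and -3.53) were larger than that of TNFSF4 (-2.71). Sequences are the hg38 plus strand, read 5′ to 3′, and capitals mark motif matches on either strand: the κB motif of NF-κB in the first 4 lines, with an AP-1 motif after it in the TNFRSF18 line, and in LTBR a GRE. The TNFSF18 region held no match of the 3 motifs, and its line has no capitals. The stretches are chr1:1201480-1201639 for TNFRSF18, chr14:103111562-103111721 for TNFAIP2, chr6:31578500-31578659 for TNF, chr1:173137190-173137349 for TNFSF4, chr12:6376241-6376400 for LTBR and chr1:172976204-172976363 for TNFSF18. The LTBR stretch is intronic, and the others lie between genes.
TNFRSF18: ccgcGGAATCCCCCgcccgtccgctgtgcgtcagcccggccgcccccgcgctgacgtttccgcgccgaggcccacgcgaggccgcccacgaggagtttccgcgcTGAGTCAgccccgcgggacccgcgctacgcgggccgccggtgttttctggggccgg
TNFAIP2: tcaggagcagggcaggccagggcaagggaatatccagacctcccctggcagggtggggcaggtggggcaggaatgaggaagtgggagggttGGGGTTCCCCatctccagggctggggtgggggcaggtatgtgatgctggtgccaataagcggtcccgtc
TNF: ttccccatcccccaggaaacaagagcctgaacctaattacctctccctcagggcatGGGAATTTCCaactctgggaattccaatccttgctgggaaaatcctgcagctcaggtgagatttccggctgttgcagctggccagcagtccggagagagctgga
TNFSF4: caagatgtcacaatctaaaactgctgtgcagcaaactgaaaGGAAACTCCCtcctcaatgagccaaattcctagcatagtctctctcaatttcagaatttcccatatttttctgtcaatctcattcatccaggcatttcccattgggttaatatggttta
LTBR: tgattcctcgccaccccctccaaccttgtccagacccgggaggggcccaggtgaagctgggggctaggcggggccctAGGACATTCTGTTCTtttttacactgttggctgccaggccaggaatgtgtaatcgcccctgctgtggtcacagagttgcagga
TNFSF18: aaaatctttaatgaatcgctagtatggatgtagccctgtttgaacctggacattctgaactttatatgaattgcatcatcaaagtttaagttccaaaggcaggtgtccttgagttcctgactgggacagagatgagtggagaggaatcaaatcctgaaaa

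The GRE was searched as the half-sites AGAACA and TGTTCT with 3 bases between them, allowing at most 2 mismatches in the 12 fixed bases, and the LTBR match had 1. AP-1 was searched as TGACTCA or its G variant TGAGTCA, and the κB motif by its usual 10-base consensus, all on both strands of the whole 400 bp region. A κB match was present in 21 of 49 members, 42.9%, against 21.3% of all regions and 3.90% of windows 5 kb away. A GRE match was present in 5 members, 10.2%, against 14.7% of all regions and 2.63% of those windows. AP-1 matches were found in 13 members, 26.5%, against 22.8% and 6.98%. Of the members, 9 held both κB and AP-1 matches, 1 held κB and GRE matches and 20 held none of the 3. The GRE matches lay in the lead regions of LTBR, TNFAIP8, TNFSF8 and TRAF3IP3 and in the region 1.80 kb upstream of TNFSF18, which also had κB matches.

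Members lay nearer to gene starts than most regions did, and 12 genes had 2 to 6 regions each, so that members of 1 gene share a locus and are not replicates. Their median distance to the TSS was 9.83 kb, against 28 kb over the 7574 linked regions, and 51% lay within 10 kb, against 23.7%. Only 2 lay within 1 kb, at the TSS of TRAF3 (0.03 kb) and TRAF2 (0.772 kb), 17 lay upstream of their TSS, and by midpoint 23 were intronic, 19 intergenic and 7 in UTR exons. The authors' table places each region in a class, and 69.4% of members (34) were in the increasing class, 9 in the unchanged and 6 in the decreasing class, against 40.5%, 31.8% and 27.8% of all regions. The sources used here do not say how the classes were made, so they may rest on the same GR values.

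Values are given as signal, read back from the deposited values taken as log2(signal + 1). Whether signal is the mean coverage per base in every group is not known. Differences are on the log2(signal + 1) scale, and every fold is a ratio of signal + 1, also where it stands beside signals. This scale understates folds at low signal. A region is called higher or lower when it differed at least 2-fold on it. With budesonide and IL1B in Ad-GFP, no member had a signal under 10, and only 0.996% of all regions did. The members' median there was 60.1, against 45.7 over all regions. With budesonide alone, the median over members in Ad-GFP was 6.52, against 21.7 over all regions, and 32 of 49 were under 10, against 32.3% of all regions. In Ad-IκBαΔN the members' medians were 7.03 untreated, 9.57 with budesonide and 16.0 with both agents. The highest of the 6 values was that of IL1B+Bud in Ad-GFP at 40 of 49 members, against 63.9% of all regions.

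**Figure D1:**
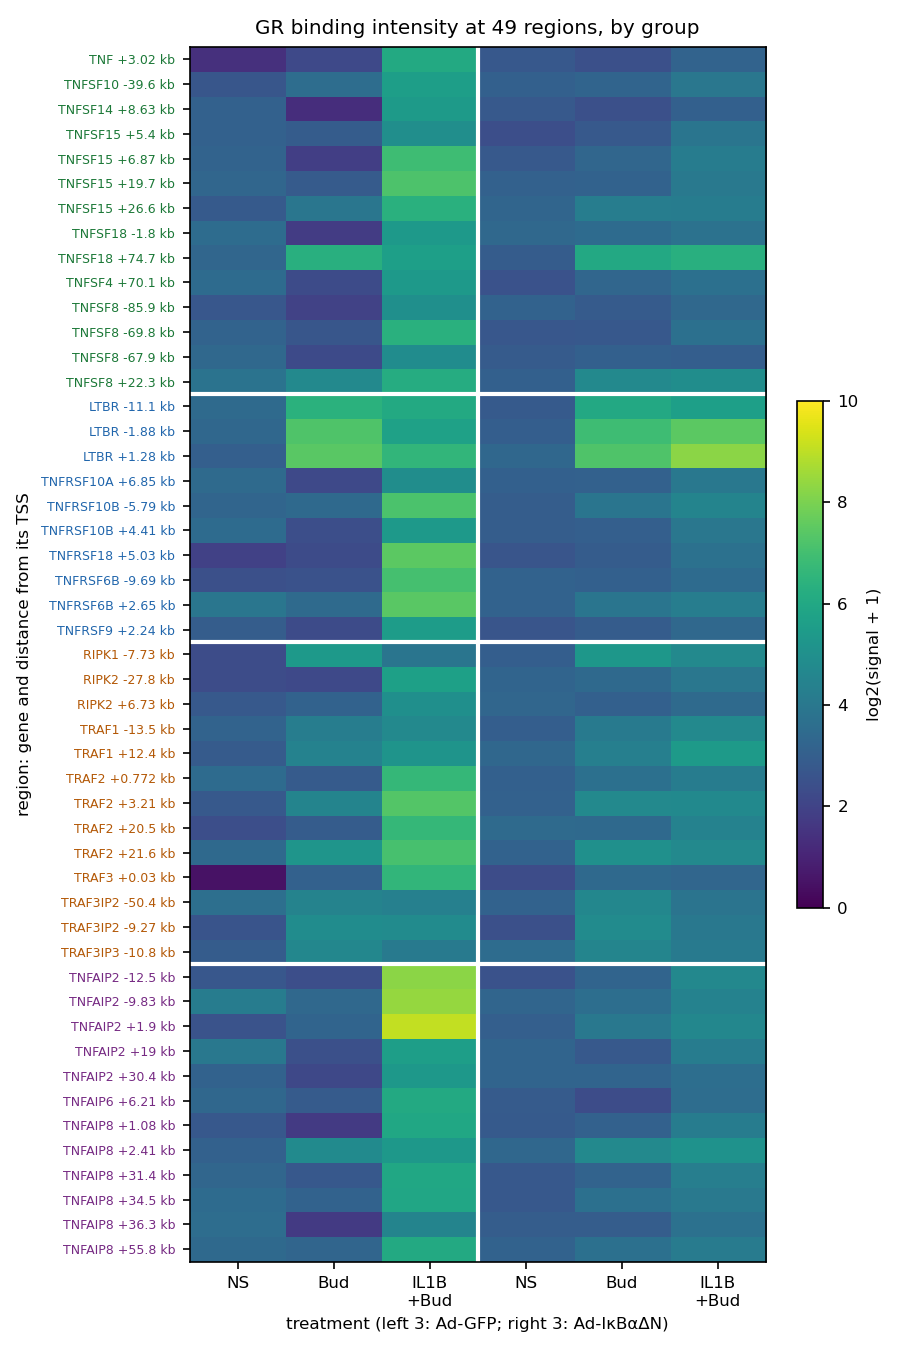
Deposited GR intensity, log2(signal + 1), at the 49 member regions (rows, labelled by gene and signed distance from its TSS, negative upstream, and ordered as ligands, receptors, adaptors and TNF-induced proteins) in the 6 groups (columns, 1 authors' value each). The Ad-GFP IL1B+Bud column is the brightest in 40 rows, and the LTBR rows are bright in both budesonide columns.

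In Ad-GFP cells, IL1B given along with budesonide gave higher GR signal at 38 of 49 members and lower signal at 2, with a median log2 difference of 3.00. Over all regions 48.9% were higher and 6.07% lower, with a median of 0.92. Low regions weighed in this count, since without the 25% of regions with the lowest mean 14 of the 25 members left were higher, 56%, against 34.7% of all regions so filtered. The ligand genes had 13 of 14 regions higher (median 3.05), the receptor genes 7 of 10 (3.10), the adaptor genes 7 of 13 (1.83) and the TNF-induced genes 11 of 12 (3.19). The 2 lower regions were at LTBR and RIPK1. In Ad-IκBαΔN cells the same comparison gave 9 members higher and none lower, with a median of 0.53, against 9.65% higher, 0.94% lower and a median of 0.26 over all regions. Of the 38 members higher in Ad-GFP, 7 were also higher in Ad-IκBαΔN, 18.4%, close to the 16.9% (888 of 5252) over all regions.

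The signal fell on multiples of 1 coverage step in 3 groups, of 3 steps in Ad-GFP IL1B+Bud and of 1.5 in Ad-IκBαΔN IL1B+Bud. In untreated Ad-IκBαΔN it fell on none of these steps, and that group was left undivided. Because the authors' scaling is unknown, these steps do not show whether the deposited groups share a common scale. Dividing by the steps is therefore an alternative, not a correction. Each difference was recomputed under this and other scalings, 4 in all. With added IL1B in Ad-GFP, members that were higher numbered 28 to 38 under them, 27 of the 38 were higher under all 4, and 36 stayed above 0, the exceptions being lead TNFSF8 (-0.04) and the RIPK2 region 6.73 kb into the gene (-0.00). In the deposited values 38 of 49 members lay above the median of all regions, a position that scaling by a constant cannot change, and with quantile normalization it was also 38. That median moved to -0.12, -0.13, 0.42 or -0.61, and the members' median to 1.96, 1.06, 2.50 or 1.51, with re-centring on all regions, quantile normalization, centring on the unchanged class, or division by the steps. In Ad-IκBαΔN the members higher with added IL1B numbered 0 to 5 under the scalings, and dividing by the steps gave 4 lower and a median of -0.01.

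The difference between viruses in the effect of added IL1B, Ad-IκBαΔN minus Ad-GFP, was at least 2-fold negative at 37 members and positive at 2, with a median of -2.46. Over all regions 47.4% were negative and 7.98% positive to that extent, with a median of -0.84. All 37 stayed below 0 under the 4 scalings, and 27 stayed at least 2-fold negative. Comparing the viruses directly in IL1B+Bud cells, 36 members were lower with Ad-IκBαΔN and 2 higher, against 46.5% and 5.97% of all regions, and 20 of the 36 were lower in every scaling.

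**Figure D2:**
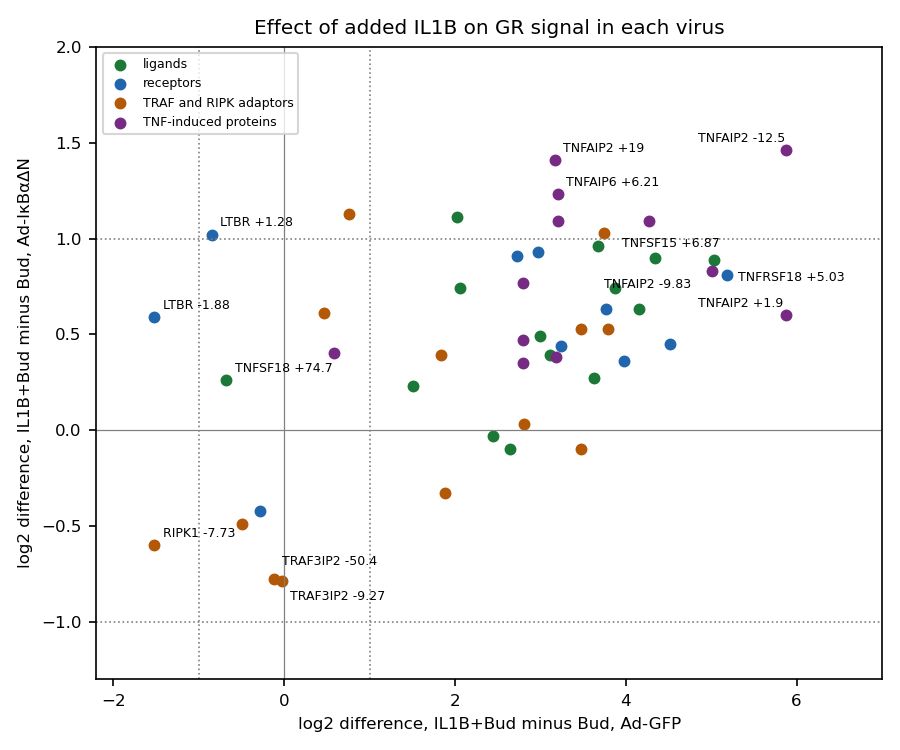
Effect of added IL1B, the log2 GR signal of IL1B+Bud minus that of Bud, in Ad-GFP (x) and in Ad-IκBαΔN (y) at the 49 member regions, coloured by role; dotted lines mark 2-fold and labels give the distance from the TSS in kb. Most points lie to the right, with 38 past 2-fold on x and 9 on y, while 2 LTBR regions and lead TNFSF18 lie left of 0 and above it.

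Among the ligands, the region near TNF, the cytokine that gives the family its name, lay 3.02 kb downstream of its TSS at chr6:31578380-31578779, beyond the end of the gene and 3.94 kb from the TSS of LTB, the gene of lymphotoxin beta. Its signal was 1.62 untreated, 3.64 with Bud and 66.7 with IL1B+Bud in Ad-GFP, and 5.69, 4.46 and 8.10 with Ad-IκBαΔN. Later values are in the same order. The Ad-GFP value with both agents thus stood apart from the other 5, 14.6-fold above budesonide alone, while the corresponding fold in Ad-IκBαΔN was 1.67. Since the TSSs of TNF and LTB are close together, the link does not say which of them the region serves.

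TNFSF15, which encodes the DR3 ligand TL1A, had 4 regions within 21.6 kb. The region 6.87 kb into the gene went from 2.66 with Bud to 118 with IL1B+Bud in Ad-GFP, 32.6-fold, and from 8.82 to 17.3 in Ad-IκBαΔN, 1.86-fold. At 19.7 kb, in a UTR exon, the Ad-GFP values were 8.76 untreated, 6.27 with Bud and 146 with both, the highest signal among the ligand regions, and the Ad-IκBαΔN values were 7.57, 7.87 and 15.6. The lead region, 26.6 kb downstream of the TSS, had 6.10, 14.2 and 81.4 in Ad-GFP, and 8.64, 17.6 and 17.3 with Ad-IκBαΔN, so that added IL1B left the Ad-IκBαΔN value where budesonide had put it. The fourth, 5.4 kb from the TSS, was in the authors' decreasing class although its Ad-GFP signal went from 6.52 under Bud to 29.4 when IL1B was added, 4.05-fold, a log2 difference of 2.02 that dropped to 0.05 under the lowest of the scalings.

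TNFSF8, the gene of the CD30 ligand, lies beside TNFSF15, and the 8 regions of the pair spanned 238 kb of chromosome 9. Its lead region, in an intron 22.3 kb from the TSS, had 13.0, 24.7 and 72.3 in Ad-GFP, and 7.28, 24.8 and 29.2 with Ad-IκBαΔN, in the order untreated, Bud and IL1B+Bud. It carries a GRE match, and budesonide alone gave nearly the same signal with either virus. The 3 further regions lay 67.9, 69.8 and 85.9 kb upstream with 28.2, 81.0 and 30.8 in Ad-GFP IL1B+Bud, from 3.69, 5.43 and 2.97 with Bud. In Ad-IκBαΔN they were between 6.83 and 12.1 with both agents.

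TNFSF18 and TNFSF4, the genes of the GITR and OX40 ligands, are neighbours on chromosome 1, and their regions behaved in 2 ways. The lead TNFSF18 region, 74.7 kb downstream, was a budesonide-bound region, with 8.90, 78.2 and 48.5 in Ad-GFP, and 6.59, 64.9 and 77.7 with Ad-IκBαΔN. Its signal with both agents was thus below that with budesonide in Ad-GFP and above it in Ad-IκBαΔN, by log2 differences of -0.68 and 0.26 that each fell short of 2-fold. The region 1.80 kb upstream of TNFSF18 had 10.5, 2.42 and 41.4 in Ad-GFP, and 9.44, 10.4 and 12.7 with Ad-IκBαΔN, and the TNFSF4 region, 70.1 kb downstream of its TSS, had 10.2, 3.86 and 40.8 and then 4.65, 8.96 and 12.1. At both of these, budesonide alone in Ad-GFP gave the lowest value, and adding IL1B the highest, 12.4-fold and 8.6-fold above it.

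The remaining ligand genes had 1 region each. TNFSF14, which encodes LIGHT, had a region in its UTR 8.63 kb from the TSS. It had 7.62, 1.46 and 43.1 in Ad-GFP, 17.9-fold in signal + 1 between the last 2, and 6.03, 4.39 and 7.37 in Ad-IκBαΔN. TNFSF10 encodes TRAIL, a death ligand, and its region 39.6 kb upstream had 5.33, 10.8 and 48.2 in Ad-GFP, and 7.37, 8.42 and 14.7 with Ad-IκBαΔN. Both followed the pattern of TNF, with the Ad-GFP value of IL1B+Bud above the other 5.

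**Figure D3:**
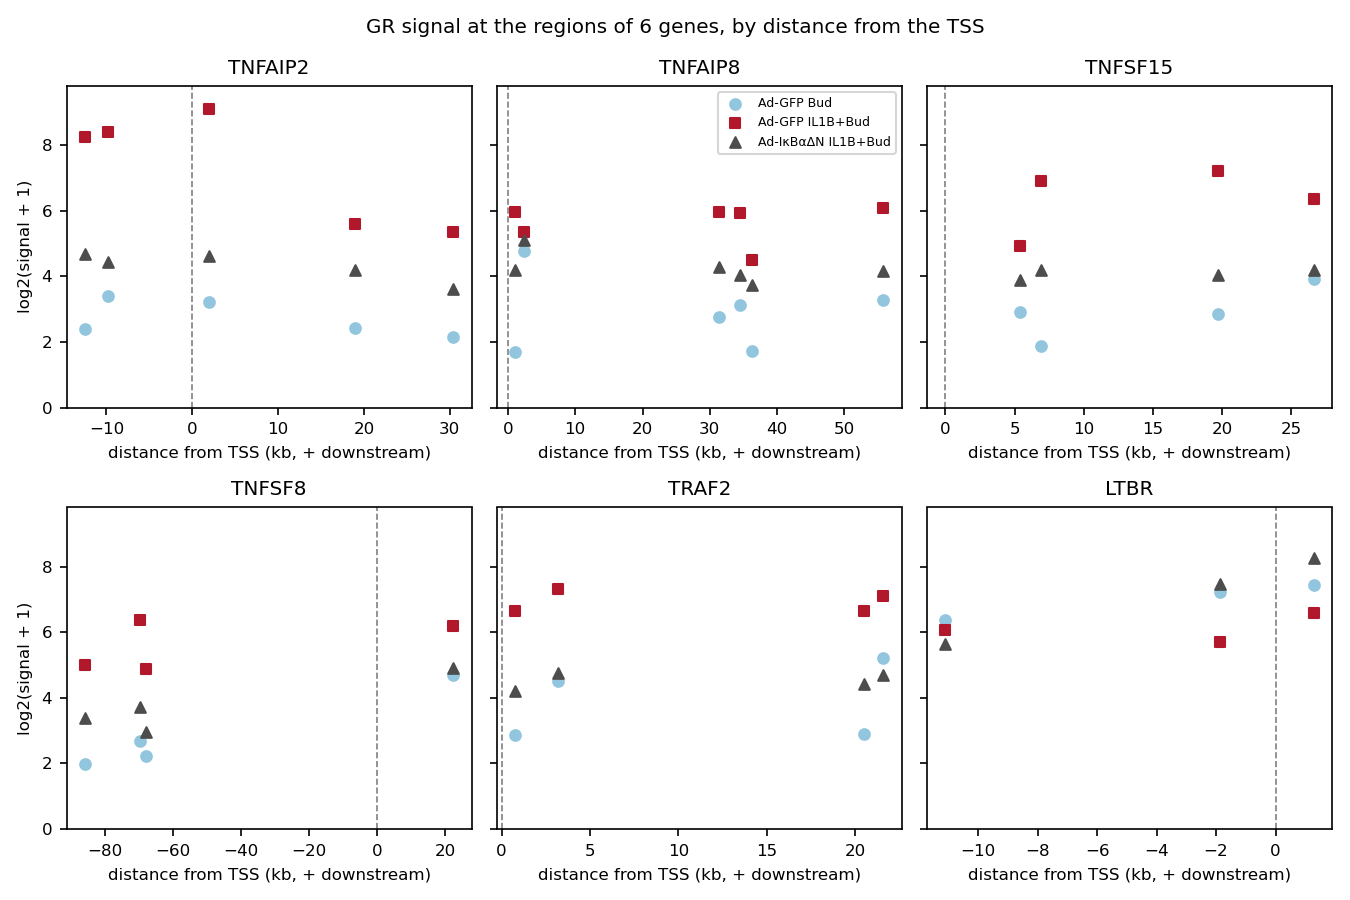
GR signal, log2(signal + 1), against distance from the TSS (kb, dashed line at 0) at the member regions of 6 genes, for Ad-GFP with Bud (circles), Ad-GFP with IL1B+Bud (squares) and Ad-IκBαΔN with IL1B+Bud (triangles), 1 authors' value each. In the first 5 panels the squares lie highest at each region, with TNFAIP2 at up to 548, whereas at LTBR they lie lowest at 2 of the 3 regions.

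Of the receptors, LTBR, the lymphotoxin beta receptor, had the highest budesonide signals and went the other way. Its 3 regions lay within 12.8 kb, where LTBR overlaps SCNN1A, the gene of the epithelial sodium channel alpha subunit. The link by distance does not say which of these genes they serve. The lead region, chr12:6376121-6376520, is 1.28 kb into LTBR and 1.41 kb from the SCNN1A TSS, in an intron of both genes. Its signal was 7.09 untreated, 172 with Bud and 95.5 with IL1B+Bud in Ad-GFP, and 9.17, 149 and 304 with Ad-IκBαΔN. The region 1.88 kb upstream of LTBR, in an SCNN1A intron, had 9.2, 149 and 51.3 and then 7.02, 117 and 177.

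At both, the signal with IL1B+Bud was below that of budesonide alone in Ad-GFP and above it in Ad-IκBαΔN. The log2 differences were -0.85 and 1.02 at the lead region and -1.52 and 0.59 at the other, and their differences between viruses, 1.87 and 2.11, were the only 2 among members that were at least 2-fold positive in the deposited values. In IL1B+Bud cells the Ad-IκBαΔN signal was 3.17-fold and 3.40-fold that of Ad-GFP, which ranked 126 and 101 among the 10740 regions. The third LTBR region, 11.1 kb upstream in a UTR of SCNN1A, had 10.1, 81.8 and 66.6 in Ad-GFP, and 6.10, 65.4 and 48.6 with Ad-IκBαΔN, with both viruses alike.

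Another region inside LTBR, 11.7 kb from its TSS, was nearer to SCNN1A (8.98 kb) and so is no member. Its values were 9.03, 3.68 and 165 in Ad-GFP, and 8.25, 8.76 and 13.7 with Ad-IκBαΔN, 35.4-fold higher with added IL1B in Ad-GFP. The LTBR gene thus held regions of both kinds.

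TNFRSF18, which encodes GITR, the receptor for the TNFSF18 product, had the largest effect of added IL1B among the receptors. Its region, 5.03 kb downstream of the TSS at chr1:1201360-1201759, lies past the gene's end and 12.6 kb from the TSS of TNFRSF4, the OX40 gene. Signal was 2.87, 3.89 and 177 in Ad-GFP, 36.5-fold between the last 2, and 5.26, 6.51 and 12.1 in Ad-IκBαΔN. This region held the κB and AP-1 matches shown above.

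TNFRSF6B encodes DcR3, a secreted decoy that binds TL1A, LIGHT and the FAS ligand. Its 2 regions, in an intron of RTEL1 9.69 kb upstream and in a UTR of ARFRP1 2.65 kb downstream of the TSS, had 132 and 174 with IL1B+Bud in Ad-GFP, from 4.77 and 10.1 with Bud. In Ad-IκBαΔN they had 10.4 and 18.0, from 7.35 and 13.8. Both sit in other genes and were linked to TNFRSF6B by distance, and the upstream region also lies in an intron of the annotated gene RTEL1-TNFRSF6B.

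The TRAIL receptor genes TNFRSF10A and TNFRSF10B, whose products carry death domains, had their highest signal in Ad-GFP IL1B+Bud. At lead TNFRSF10B, 5.79 kb upstream, signal was 8.73, 9.53 and 143 in Ad-GFP, and 6.71, 14.0 and 22.2 with Ad-IκBαΔN. The second TNFRSF10B region, 4.41 kb into the gene, had 10.4, 4.31 and 40.5 and then 6.63, 7.19 and 14.6. TNFRSF10A, 6.85 kb into the gene, had 9.92, 3.57 and 29.1 and then 7.43, 7.52 and 15.0, and TNFRSF9, the gene of the costimulatory receptor 4-1BB, had 6.79, 3.89 and 45.3 and then 5.16, 6.54 and 9.24 in a UTR 2.24 kb from its TSS. Added IL1B gave between 6.58-fold and 13.7-fold in Ad-GFP over these 4 regions and under 2-fold in Ad-IκBαΔN.

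Of the 13 adaptor regions, 8 (61.5%) were higher with budesonide in Ad-GFP and 7 (53.8%) when IL1B was added, shares near the 57.9% and 48.9% of all regions. TRAF2, the adaptor that brings ubiquitin ligases to TNF receptors, had 4 regions within 21.2 kb. At the one 0.772 kb from the TSS, signal was 10.4, 6.28 and 99.6 in Ad-GFP, and 7.41, 11.8 and 17.5 with Ad-IκBαΔN. At 3.21 kb it was 5.90, 21.8 and 159 and then 7.51, 25.4 and 26.0. The lead region at 21.6 kb had 9.53, 35.9 and 135 and then 7.76, 31.3 and 24.7.

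Budesonide alone therefore already gave more than 3-fold at the regions 3.21 and 21.6 kb from the TRAF2 TSS with either virus (3.31- and 3.51-fold in Ad-GFP, 3.10- and 3.69-fold in Ad-IκBαΔN), and IL1B added to that in Ad-GFP but not in Ad-IκBαΔN. The fourth TRAF2 region, 20.5 kb into the gene and 1.09 kb from the lead, had no such budesonide signal, with 4.28, 6.45 and 99.2 and then 10.1, 9.53 and 20.5.

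TRAF3, a brake on the non-canonical NF-κB pathway, had a region on its TSS (chr14:102777279-102777678). Its untreated Ad-GFP signal of 0.413 was the lowest value of any member, followed by 7.71 with Bud and 95.8 with IL1B+Bud. In Ad-IκBαΔN the values were 4.07, 9.57 and 8.87, so added IL1B gave 11.1-fold with one virus and 0.934-fold with the other. Because the untreated value was so low, the log2 difference of 6.10 between IL1B+Bud and NS rests on little signal in the denominator.

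RIPK1, the kinase that decides between survival and death at the TNF receptor complex, had budesonide signal that was lower with IL1B. At its region 7.73 kb upstream, chr6:3055896-3056295, signal was 4.06, 41.1 and 13.6 in Ad-GFP, and 7.02, 38.4 and 25.0 with Ad-IκBαΔN. The log2 difference with added IL1B was -1.52 in Ad-GFP, and -0.60, under 2-fold, in Ad-IκBαΔN. RIPK2, which signals from the NOD receptors, had 3.96, 3.62 and 50.7 and then 8.44, 9.79 and 14.6 at its lead region 27.8 kb upstream. Its second region had 5.90, 7.88 and 30.7 and then 8.75, 7.30 and 9.90.

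TRAF1, TRAF3IP2 and TRAF3IP3 had budesonide signal in both viruses and little further signal with IL1B in Ad-GFP. TRAF1 is an NF-κB-induced partner of TRAF2, and its lead region, in an intron 12.4 kb from the TSS, had 6.28, 20.5 and 35.3 in Ad-GFP, and 9.06, 18.9 and 42.4 with Ad-IκBαΔN. In the deposited values it was the only adaptor lead at which added IL1B gave over 2-fold in Ad-IκBαΔN (2.18-fold) and not in Ad-GFP (1.69-fold). Over the scalings the log2 difference in Ad-IκBαΔN fell from 1.13 to as little as 0.56, under 2-fold. In Ad-GFP it spanned -0.75 to 0.76. Its other region, in an intron of the complement gene C5, had 8.19, 18.1 and 25.4 and then 6.90, 16.0 and 25.0. TRAF3IP2 encodes ACT1, the adaptor of the interleukin-17 receptor, and its regions 9.27 and 50.4 kb upstream had 28.1 and 21.2 with Bud and 27.4 and 19.4 with IL1B+Bud in Ad-GFP. In Ad-IκBαΔN they had 27.0 and 23.6 with Bud and 15.2 and 13.3 with IL1B+Bud, log2 differences of -0.79 and -0.78 that were the lowest among members there. The TRAF3IP3 region, 10.8 kb upstream, had 23.9 and 16.7 in Ad-GFP, and 22.8 and 16.0 with Ad-IκBαΔN, the same with both viruses.

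TNFAIP2, a TNF-induced protein linked to membrane protrusions, had the highest member signals of all. The region 1.90 kb into the gene, chr14:103123174-103123573, had 4.80, 8.37 and 548 in Ad-GFP, and 7.03, 15.2 and 23.5 with Ad-IκBαΔN. Among the 10740 regions it ranked 20 in Ad-GFP signal with IL1B+Bud and 16 in the effect of added IL1B there, 58.6-fold. The region 12.5 kb upstream, in an intron of EXOC3L4, had 5.62, 4.24 and 305 and then 4.78, 8.23 and 24.4, and the lead region, 9.83 kb upstream, had 17.3, 9.51 and 337 and then 8.69, 11.3 and 20.9. With Ad-IκBαΔN these 3 regions were thus between 20.9 and 24.4 with both agents, where Ad-GFP cells had over 300.

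The 2 more distant TNFAIP2 regions were lower. At 19.0 kb downstream signal was 15.2, 4.41 and 47.6 in Ad-GFP, and 8.31, 5.88 and 17.3 with Ad-IκBαΔN, and at 30.4 kb it was 7.82, 3.45 and 39.5 and then 8.28, 8.44 and 11.3. Added IL1B gave 8.99-fold and 9.09-fold in Ad-GFP. In Ad-IκBαΔN the regions 12.5 kb upstream and 19.0 kb downstream were 2.76-fold and 2.66-fold higher with it, the 2 largest such effects among members.

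TNFAIP8, a regulator of cell death and lipid signalling, had 6 intronic regions within 55.1 kb. Its lead region, 2.41 kb from the TSS and with a GRE match, was budesonide-bound, with 7.63, 26.2 and 39.8 in Ad-GFP, and 9.11, 25.2 and 33.6 with Ad-IκBαΔN. The region 1.08 kb from the TSS, 1.32 kb away from it, had 5.71, 2.26 and 61.8 and then 6.07, 7.66 and 17.4, 19.2-fold with added IL1B in Ad-GFP against 1.5-fold at the lead. The 4 regions from 31.4 to 55.8 kb had between 21.7 and 66.6 with IL1B+Bud in Ad-GFP and between 12.3 and 18.4 in Ad-IκBαΔN. TNFAIP6, which encodes the hyaluronan-binding protein TSG-6, had a region 6.21 kb into the gene with 9.09, 6.34 and 66.4 and then 6.36, 4.04 and 10.9, a 9.18-fold and a 2.35-fold effect of added IL1B.

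A further region within the TNFAIP8 gene, 129 kb from its TSS and nearer to HSD17B4, is no member. It had 8.71, 3.97 and 176 in Ad-GFP, and 12.3, 8.36 and 12.6 with Ad-IκBαΔN.

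**Figure D4:**
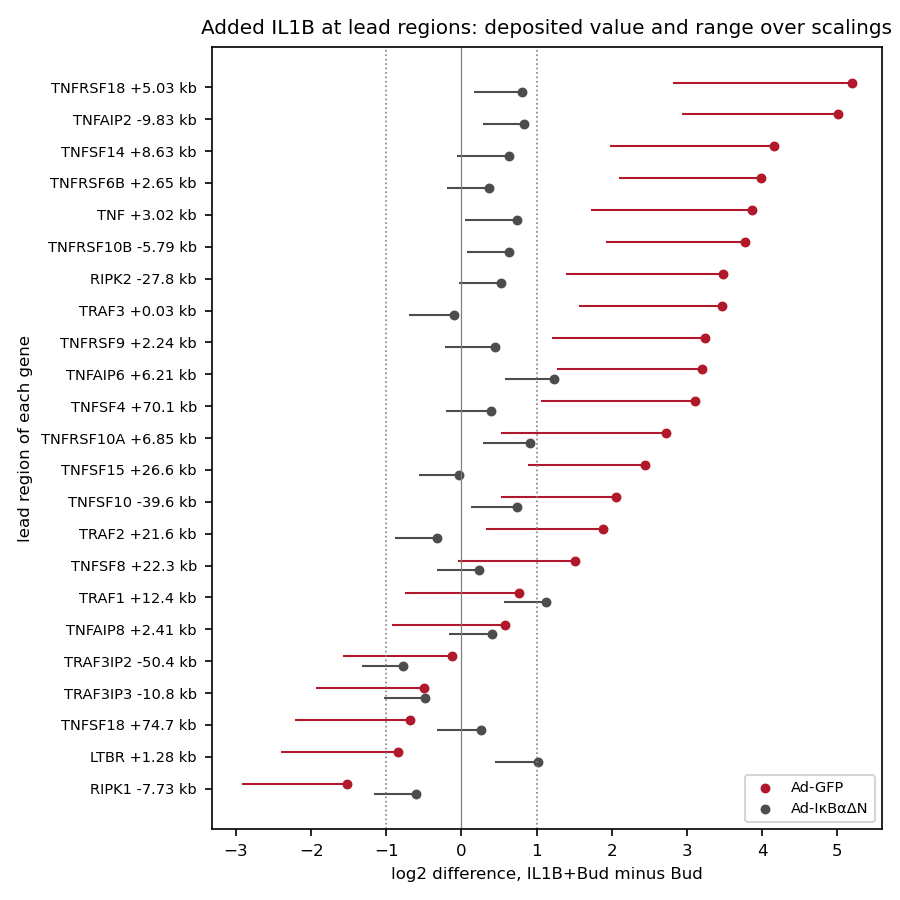
Log2 GR signal of IL1B+Bud minus that of Bud at the lead region of each of the 23 genes in Ad-GFP (red) and Ad-IκBαΔN (grey); points are deposited values and lines span these and 4 other scalings. TNFRSF18 lies highest at 5.19 and RIPK1 lowest at -1.52 in Ad-GFP, and of the Ad-GFP lines those of TNFSF8, TRAF1 and TNFAIP8 cross 0.

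Budesonide alone, against untreated cells, gave higher signal at 14 members and lower at 10 in Ad-GFP, with a median of -0.10, against 57.9% higher, 8.14% lower and a median of 1.37 over all regions. In Ad-IκBαΔN 15 were higher and none lower, with a median of 0.49, against 59.3% higher and 1.06% lower. The 3 largest differences in Ad-GFP were at the LTBR regions 1.28 and 1.88 kb from the TSS, 21.4- and 14.7-fold, and at RIPK1, 8.33-fold. In Ad-IκBαΔN they were at the 3 LTBR regions, 14.8-, 14.7- and 9.36-fold.

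This comparison and that of added IL1B share the budesonide values, so a low budesonide value lowers the first and raises the second. The counts of higher members depended on the scaling, and 3 of the 14 and 4 of the 15 were higher in every one, because the median of all regions moves to about 0 or below when groups are re-centred. The 10 members that were lower with budesonide in Ad-GFP were calls at low signal. With a pseudocount of 5 there were 3, and without the 25% of regions with the lowest mean there were 0, while the other scalings only move this difference down or leave it. The 10 were 5 ligand, 2 receptor and 3 TNF-induced regions, with the lowest values at TNFAIP8 36.3 kb (10.8 untreated and 2.28 with Bud), TNFSF14 and the TNFSF18 region 1.80 kb upstream. In Ad-IκBαΔN the same regions went from 6.80 to 6.79, from 6.03 to 4.39 and from 9.44 to 10.4.

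Among budesonide-treated cells, 8 members were higher with Ad-IκBαΔN than with Ad-GFP and none lower, against 4.02% and 0.0186% of all regions, led by TNFSF18 (1.80 kb), TNFSF15 (6.87 kb) and TNFAIP8 (1.08 kb) at log2 differences of 1.74, 1.42 and 1.41. All 8 stayed above 0 in each scaling, and none was 2-fold in all. The Ad-GFP values at these 8 regions were between 1.46 and 3.86, where a small shift makes a large fold. Among untreated cells 3 members were higher with Ad-IκBαΔN, at TRAF3, TNF and the TRAF2 region at 20.5 kb, and none was lower, against 7.21% and 2.77% of all regions, but quantile normalization gave 6 higher and 20 lower.

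Against untreated cells, IL1B+Bud gave higher signal at 47 members with Ad-GFP and at 28 with Ad-IκBαΔN, and lower at none. Over all regions the shares were 93.7% higher and 0% lower with Ad-GFP, and 69.1% and 0.0466% with Ad-IκBαΔN. The members' medians, 2.61 and 1.07, stood beside 2.49 and 1.48 over all regions. The 2 members short of 2-fold in Ad-GFP were lead TRAF3IP2 and TNFAIP8 36.3 kb, with log2 differences of 0.69 and 0.95. Under the other scalings 15 to 26 members were higher in Ad-GFP and 3 to 14 in Ad-IκBαΔN, so these counts rest on the scale of the groups.

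Members with a κB match were called higher more often than members without one, as was so over all regions. All 21 were higher with added IL1B in Ad-GFP, with a median log2 difference of 3.63, against 17 of 28 and 1.95 without one. Over all regions 92.5% of those with a κB match were higher (2118 of 2290), with a median of 3.09, against 37.1% and 0.36 without one. The members' count was thus near the share of all κB regions. A region may be in the table only through the group where its signal was high, which limits both counts. In Ad-IκBαΔN the members with a κB match had a median of 0.63. The 4 members with a GRE match and no κB match had a median of 0.04 in Ad-GFP, with values from -0.85 at LTBR to 1.51 at TNFSF8. All regions with a GRE match, with or without a κB match, had a median of -0.16 there, and 18.1% were higher. The TNFAIP2 region with the 58.6-fold effect had no match. The κB search allowed no mismatch to its consensus, so whether a weaker site lies there was not tested. The median GC content of members was 47.2%, against 44.5% of all regions.

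**Figure D5:**
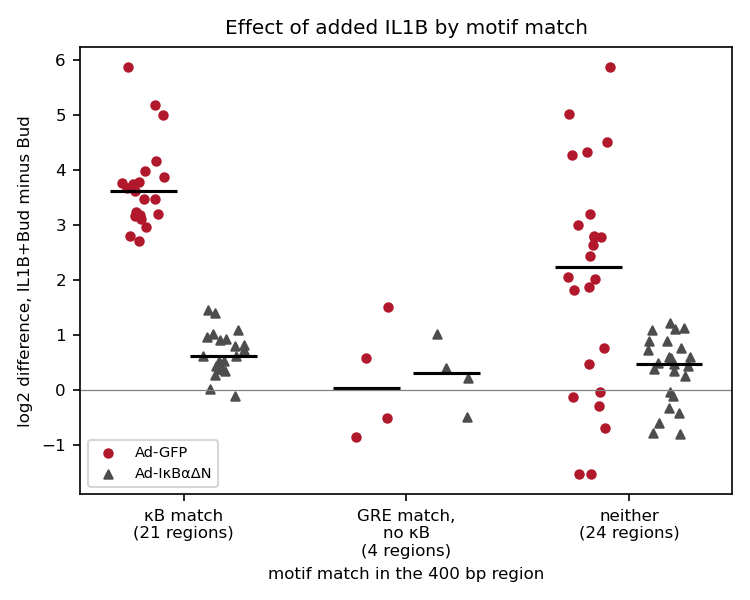
Log2 difference between IL1B+Bud and Bud in Ad-GFP (circles) and Ad-IκBαΔN (triangles) at member regions with a κB match (21), with a GRE match only (4) and with neither (24); AP-1 was not used, points are regions and bars are medians. The Ad-GFP medians are 3.63, 0.04 and 2.25, and the lowest κB point in Ad-GFP lies at 2.72.

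Other genes of the pathway were taken from a list of 68, of which 43 had a region within the same distance, 138 regions in all. The list was drawn up with earlier results of these data known, and it includes response genes. Its shares therefore describe this list and test nothing about the pathway. With added IL1B in Ad-GFP, 119 of the 138 were higher and 1 lower, 86.2% against the 48.9% of all regions, with a median of 3.13. In Ad-IκBαΔN 15 were higher, 10.9% and so near the 9.65% of all regions, and none lower, with a median of 0.42. In IL1B+Bud cells 118 were lower with Ad-IκBαΔN than with Ad-GFP, where 46.5% of all regions were. The kinase genes had 18 of 19 regions higher with added IL1B in Ad-GFP, the NF-κB and IκB genes 23 of 28, ubiquitin-chain enzymes 19 of 22, adaptors and cell-death genes 19 of 26, and ligand shedding and response genes 40 of 43. NFKB2, whose p100 product is processed in the non-canonical pathway that LTBR feeds, had 10.7 with Bud and 582 with IL1B+Bud in Ad-GFP, and 13.8 and 18.9 with Ad-IκBαΔN. The lead region of NFKBIA, the gene of the inhibitor IκBα, had 871 with Bud and 614 with both agents in Ad-GFP, and 668 and 535 with Ad-IκBαΔN, and the lead region of BIRC3, a ubiquitin ligase recruited by TRAF2, had 211 and 213 and then 162 and 89.4. These last 2 were among the regions with high budesonide signal in both viruses, as LTBR was.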

How the data were processed

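GR ChIP-seq values of A549 cells were analysed for 6 groups of 2 libraries each. The authors' deposited table gives 1 log2 binding intensity per 400 bp region and group, with the region class, and writes Ad-IκBα for the virus labelled Ad-IκBαΔN. Tools in the submitters' processing notes are DiffBind 3.2, MACS2 2.2.7.1, Bowtie2 2.4.4, FastQC 0.10.1, bcl2fastq and SAMtools, and the build is hg38. The sources used here do not say which of them made the intensities, how 2 libraries became 1 value or how groups were scaled. Libraries of RELA and of input chromatin were not used here.

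The deposited log2 values were read as log2(signal + 1), because signal times region width fell on whole steps within 0.0001 in 5 groups, but for 1 region in untreated Ad-GFP cells. Tests over libraries had been planned. With 1 value per group they were not possible, so 10 comparisons are described by the count of regions at least 2-fold different, with no p-value or SD. Alternatives were 4 scalings, a pseudocount of 5, leaving out the 25% of regions with the lowest mean, a 50 kb link and a 1.5-fold threshold. The named regions are the lead region of each gene and the 3 highest and 3 lowest members of a comparison, with other members given where they add to a gene's account. The members and lists were chosen with earlier results of these data known. Counting was tested on simulated data. Python 3.11.15, numpy 2.4.6, pandas 2.3.3 and matplotlib 3.10.9 were used.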

Additional observations from a re-analysis of the deposited data

Results flagged for a closer look

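At 7 of 49 members, 14.3%, the effect of added IL1B had opposite signs in the 2 viruses, a smaller share than the 30.8% of all regions (3311 of 10740). The difference between viruses, Ad-IκBαΔN minus Ad-GFP on the log2 scale, was 2.11 at the LTBR region 1.88 kb upstream of its TSS, 1.87 at the LTBR region 1.28 kb downstream and 0.93 at the TNFSF18 region 74.7 kb downstream, where signal fell short of that with budesonide in Ad-GFP only. It was -3.57 at the TRAF3 TSS, -2.74 at the TNFSF8 region 67.9 kb upstream, -2.46 at the TNFSF15 region 26.6 kb downstream and -2.21 at the TRAF2 region 21.6 kb downstream, where signal was above that with budesonide in Ad-GFP only. The effects in Ad-IκBαΔN were -0.10, -0.10, -0.03 and -0.33 at these last 4, all well under 2-fold. The signs were opposite in the deposited values and all 4 other scalings at 6 of the regions, and in 4 of 5 settings at TNFSF18. With 1 authors' value per group, these differences were not tested.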

How the results depend on the processing

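Counts of members past 2-fold depended on how the groups were scaled, and those of Bud or IL1B+Bud against NS moved most. In what follows, each count is of 49 members. Re-centring on all regions gave, for Bud against NS, 6 higher and 29 lower in Ad-GFP, and 4 and 22 with Ad-IκBαΔN. For IL1B+Bud against NS it gave 16 and 3, and 4 and 8. For added IL1B it gave 8 lower in Ad-GFP and 4 higher in Ad-IκBαΔN. Between viruses it gave 1 lower in NS, 5 higher and 20 lower in IL1B+Bud, and 6 positive differences in the effect of IL1B. Quantile normalization gave, in the same order, 5 and 21, 7 and 10, 15 and 7, 7 and 8, then 7 lower and 0 higher, and between viruses 6 higher and 20 lower in NS, 0 higher in Bud, 6 higher and 21 lower in IL1B+Bud, and 6 positive differences. Centring on the unchanged class gave 4 and 35, 4 and 30, 16 and 3, 3 and 17, then 4 lower and 5 higher, and between viruses 1 lower in NS, 4 higher in IL1B+Bud and 4 positive differences. Dividing by the steps gave 26 and 14 higher for IL1B+Bud against NS in Ad-GFP and Ad-IκBαΔN, 9 lower for added IL1B in Ad-GFP, 0 higher and 4 lower in Ad-IκBαΔN, 5 higher and 20 lower between viruses in IL1B+Bud, and 6 positive differences, and turned lead TNFSF8 from 1.51 to -0.04.

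A pseudocount of 5 gave 3 lower for Bud against NS in Ad-GFP, 3 higher for added IL1B in Ad-IκBαΔN, and 0 and 1 higher between viruses in NS and Bud. A 1.5-fold threshold gave 23 higher for Bud against NS in Ad-IκBαΔN, 4 lower for added IL1B in Ad-GFP, 24 higher and 3 lower in Ad-IκBαΔN, and between viruses 8 higher and 9 lower in NS, 17 higher in Bud, 4 higher in IL1B+Bud and 4 positive differences. Leaving out regions of low mean left 25 members, with 14 higher for added IL1B and 24 for IL1B+Bud against NS in Ad-GFP, 0 lower for Bud against NS in Ad-GFP, 4 higher for added IL1B in Ad-IκBαΔN, and between viruses 1 higher in NS, 0 higher in Bud, 14 lower in IL1B+Bud and 14 negative differences. That filter removes members that are low in most groups. The 50 kb link kept 42 members and left each of the 20 counts within 1.5 times. No paired analysis was possible because the table gives 1 value per group, and leaving out a replicate was not run for that reason. The depth of the libraries is unknown, so no limit from counting error can be given.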
